A study of Homo sapiens with 12 samples.

Results

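The histone genes of the HIST clusters are the genes whose symbols begin with HIST1H, HIST2H, HIST3H or HIST4H, the older nomenclature of the replication-dependent histone genes. The rule took every such row of the count tables, and 90 of 58735 rows were members. They were 8 H1, 23 H2A, 26 H2B, 17 H3 and 16 H4 genes, of which 71 are annotated as coding and 19 as non-coding. HIST1 is the large cluster on chromosome 6 (68 members, 2 of them pseudogenes placed on chromosome 13). HIST2 (17 members) and HIST3 (4 members) lie on chromosome 1, and HIST4H4 stands alone on chromosome 12. The RNA came from MDA-MB-468, an established human breast cancer cell line listed as wild type, in 12 libraries, with 3 libraries labelled A, B and C in each of 4 groups. Combo cells received 5 µM tazemetostat, an inhibitor of the histone methyltransferase EZH2, together with 5 µM ipatasertib, an inhibitor of the kinase AKT, and were collected at 24 h. Before that they had been kept for 5 days in tazemetostat or DMSO, and they were dosed in 6 cm plates in medium with 2% serum. The remaining treated groups received 10 nM docetaxel, a taxane that stabilises microtubules, in 10 cm plates for 24 h or for 8 h. The labels give no hours, plate or serum for the DMSO libraries and no arm with either inhibitor alone. The inhibitors, the serum, the plate and the days of pretreatment therefore cannot be told apart in the comparison of Combo with docetaxel. Nothing says that A, B and C were separate cultures, so p-values measure only the spread between these libraries.

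Histones are the proteins around which DNA is wound: H2A, H2B, H3 and H4 form the nucleosome core and H1 binds the linker DNA. Most genes of the HIST clusters are transcribed in S phase, have no introns and give mRNAs that end in a conserved stem-loop in place of a poly(A) tail. The stem-loop binding protein SLBP holds this structure, and the U7 small nuclear ribonucleoprotein helps to cut the RNA behind it. Some of these genes are also known to give longer, polyadenylated transcripts that pass through the stem-loop, in particular in cells that have stopped dividing. These libraries were made from RNA selected on oligo-T beads, so a count here is mainly that of RNA with a poly(A) tail. Levels of the tailless form are not measured well. In bulk RNA, fewer cells that express a gene and less RNA in each cell cannot be told apart.

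The stem-loops of the members are shown because they are the feature that sets these mRNAs apart. They were searched in the annotated transcripts (GENCODE release 29, GRCh38) after the coding end, as 16 bases with 6 paired bases on each side of a loop of 4. In all, 33 were found in 32 members. The capitals mark the loop, each sequence is read 5′ to 3′ on the strand of its gene, and the letters are those of the DNA.
HIST1H2AC, chr6:26124669-26124684, + strand: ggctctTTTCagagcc
HIST1H4H, chr6:26285131-26285146, − strand: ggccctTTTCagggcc
HIST1H2BC, chr6:26123472-26123487, − strand: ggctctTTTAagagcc
HIST1H4I, chr6:27139654-27139669, + strand: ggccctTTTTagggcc
HIST1H2AG, chr6:27133515-27133530, + strand: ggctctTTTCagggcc
HIST1H3E, chr6:26225596-26225611, + strand: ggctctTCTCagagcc
The form of HIST1H2AC was found 18 times, in H2A, H2B and H3 genes, and that of HIST1H2BC 5 times, in H2B and H3 genes. The forms of HIST1H4H and HIST1H4I occurred 5 and 3 times, all in H4 genes. HIST1H2AG and HIST1H3E each had a form that no other searched member had. Of the 71 coding members, 35 had an annotated transcript with at least 50 bases after the coding end, and 31 of these held a stem-loop; 35 other models stop at the stop codon and could not be searched. In 23 members the annotated transcript runs more than 100 bases past the stem-loop.

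Promoters are shown for a member of each of 2 head-to-head H2A–H2B pairs and for the H1 gene with the highest counts, since these genes moved together at 24 h. The sequences are from RefSeq (GRCh38.p14), end at the base before the RefSeq start and are read 5′ to 3′ on the strand of the gene. The part that lies inside the annotated HIST1H2AC gene is left out. Capitals mark matches to the octamer ATTTGCAT, to TATAAA and to CCAAT on either strand.
HIST1H2BC, chr6:26123927-26124144, − strand: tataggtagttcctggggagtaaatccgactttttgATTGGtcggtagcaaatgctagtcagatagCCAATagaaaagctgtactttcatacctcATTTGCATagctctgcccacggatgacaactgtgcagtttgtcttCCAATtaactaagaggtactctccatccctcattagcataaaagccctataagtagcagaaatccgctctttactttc
HIST2H2BE, chr1:149886683-149886932, − strand: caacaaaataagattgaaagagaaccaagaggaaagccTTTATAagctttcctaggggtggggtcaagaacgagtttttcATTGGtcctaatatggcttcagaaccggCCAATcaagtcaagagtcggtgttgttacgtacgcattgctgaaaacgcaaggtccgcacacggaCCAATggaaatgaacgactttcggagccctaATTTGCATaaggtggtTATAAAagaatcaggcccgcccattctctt
HIST1H1C, chr6:26056471-26056720, − strand: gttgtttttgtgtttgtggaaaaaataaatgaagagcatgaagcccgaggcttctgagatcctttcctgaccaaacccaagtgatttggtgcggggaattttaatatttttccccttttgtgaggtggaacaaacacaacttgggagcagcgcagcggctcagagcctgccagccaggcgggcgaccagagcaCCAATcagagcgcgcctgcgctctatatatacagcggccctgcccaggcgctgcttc
RefSeq promoters of 300 bases, 250 before and 50 after the start, were matched to 61 members. The octamer was in 11 of 14 H2A and 14 of 18 H2B promoters, against 1 of 10 for H3, 0 of 13 for H4 and 0 of 6 for H1, and in 1.77% of all 35116 promoters of the table. CCAAT was in every matched H1, H2A, H2B and H3 promoter but in 3 of 13 H4 promoters (34.6% of all promoters), and TATAAA in 41 of 61 (11.5% of all promoters). The ends of the octamer and of CCAAT can share bases, and such overlaps were not removed from the counts. A match is a description of letters and was not tied to any change below.

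Depth was between 29820617 and 45807059 counts per library, and 17780 genes passed the filter on low counts. Levels are given as CPM, the count of a gene relative to the total of its library after TMM scaling by edgeR. The cell line's own markers were present in all 12 libraries (KRT8 between 2871 and 4051 CPM, EPCAM between 306 and 466 CPM). ESR1 lay between 0.745 and 2.13 CPM, PGR was at most 0.0357 CPM and ERBB2 lay between 69.9 and 102 CPM. Of 6 markers each, the summed fibroblast level was 22.2 to 23.4 CPM in Combo, 16.5 to 19.7 at docetaxel 24 h, 12.3 to 13.6 at docetaxel 8 h and 21.1 to 22.4 in DMSO libraries, most of it COL1A1, while LUM had 3.76 to 4.61 CPM in Combo and 0 counts elsewhere. Summed immune markers, mostly CD14 and with MS4A1 at 0, were 38.4 to 45.0 CPM in Combo, 34.0 to 36 at docetaxel 24 h, 25.8 to 27.4 at docetaxel 8 h and 54.1 to 56.8 in DMSO libraries. Summed endothelial markers, mostly KDR, were 39.2 to 40.5 CPM in Combo, 14.0 to 15.6 at docetaxel 24 h, 12.2 to 18 at docetaxel 8 h and 21.9 to 24.6 in DMSO libraries. The share of counts in mitochondrial genes was 7.71 to 9.3% in Combo, 5.0 to 7.53% at docetaxel 24 h, 8.2 to 9.0% at docetaxel 8 h and 4.0 to 4.48% in DMSO libraries. Their part in the results below was not tested.

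Of the 90 members, 14 had no count in any library, 31 had counts but did not pass the filter, and 45 were tested (4 H1, 9 H2A, 15 H2B, 8 H3 and 9 H4 genes; 42 coding). The filter asks for about 0.306 CPM in 3 libraries, and 6 of the tested members reached that in all libraries of docetaxel 24 h and of no other group (HIST1H1B, HIST1H1D, HIST1H2APS4, HIST1H3J, HIST1H4D and HIST2H4B). Of these, HIST1H1B, HIST1H2APS4 and HIST2H4B also reached it in at least 3 libraries of other groups. They would have been tested without docetaxel 24 h. HIST1H1D, HIST1H3J and HIST1H4D, and also HIST1H4J and HIST2H3D, reached it in 3 libraries only when those of docetaxel 24 h are included. For these a higher value at 24 h was favoured by the filter. Counts of members below are therefore descriptions, to be read against the share of all tested genes that passed the same threshold. That threshold was a Benjamini-Hochberg adjusted p under 0.05 over all 17780 genes in edgeR's quasi-likelihood test. Log2 fold changes are given ± an approximate standard error, and a fold change sets the first group named over the second.

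After 24 h of docetaxel the HIST genes were higher than in DMSO across all histone types. Of the 45 tested members 36 rose and 0 fell, against 20.2% of all tested genes higher and 22.7% lower, and 25 rose at least 2-fold, against 2.23% of all genes. No member was lower at an unadjusted p under 0.05 either, and DESeq2 called 33 higher and 0 lower. The median log2 fold change of the tested members was 1.22, and that of all genes 0.01. Of the 22 members with a mean of at least 1 CPM over the 12 libraries, 22 rose, with log2 fold changes between 0.46 and 2.47. That mean includes the docetaxel 24 h libraries, so the cut favoured members that were high there. HIST1H2BO, for example, averaged 3.76 CPM at docetaxel 24 h but 0.970 in Combo, 0.574 at docetaxel 8 h and 0.847 in DMSO. In 35 of the 36 risen members each docetaxel 24 h library lay above each DMSO library, the exception being HIST2H2AC. A call as higher favours such separation, and its share over all genes was not computed, so this count is only a description.

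At 8 h of docetaxel more members fell than rose. Against DMSO 2 members rose (4.44%) and 16 fell (35.6%), beside 22.5% of all genes higher and 24.8% lower. Of the 16, 4 fell at least 2-fold (2.53% of all genes). The median log2 fold change was -0.25, against -0.02 over all genes. Under scaling by library totals, which moved the median of all genes to -0.18, 1 member was higher and 20 (44.4%) lower. All genes then split into 12.9% higher and 38.2% lower. Fewer members fell with DESeq2, and 11 to 16 fell when 1 library was left out. Between the times, 32 members were higher at docetaxel 24 h than at docetaxel 8 h and 0 were lower, against 16.6% and 18.3% of all genes, and 30 were at least 2-fold higher (2.48%). At an unadjusted p under 0.05 1 member, HIST1H4A, was lower in that comparison, and DESeq2 called 0. Library totals moved the median of all genes in it from the 0.01 of TMM scaling to 0.14, and gave 35 members higher and 0 lower beside 30.3% and 9.31% of all genes.

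In Combo cells few HIST genes passed the threshold against DMSO. In that comparison 5 members rose and 3 fell, whereas 31.4% of all genes were higher and 31.4% lower. Scaling by library totals gave 5 higher and 5 lower. Of the 22 members with a mean of at least 1 CPM, 5 rose (22.7%) and 2 fell (9.09%). Of the 23 tested members under 1 CPM, 0 rose and 1 fell, and there depth limits what can pass. The median log2 fold change was -0.08, and none of the 45 tested members passed the threshold with a change of at least 2-fold, against 12.1% of all genes at least 2-fold higher and 2.7% at least 2-fold lower. Set directly against docetaxel 24 h, 39 members were lower in Combo and 1 was higher, against 31.7% of all genes lower and 32.1% higher, and 31 were at least 2-fold lower (3.17%). The median there was -1.31.

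The 3 comparisons with DMSO share the DMSO libraries, so their calls are not independent. Side by side, 14 members were lower at 8 h and higher at 24 h, among them 3 that were also higher in Combo, and 2 were higher at both times. A further 20 did not pass at 8 h and were higher at 24 h, of which 2 were higher and 3 lower in Combo. There were 2 members lower at 8 h only (HIST1H4K and HIST2H4B), and 7 passed in none of the 3 comparisons. The shares of all genes with these patterns were not computed, so the counts describe the members only.

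**Figure D1:**
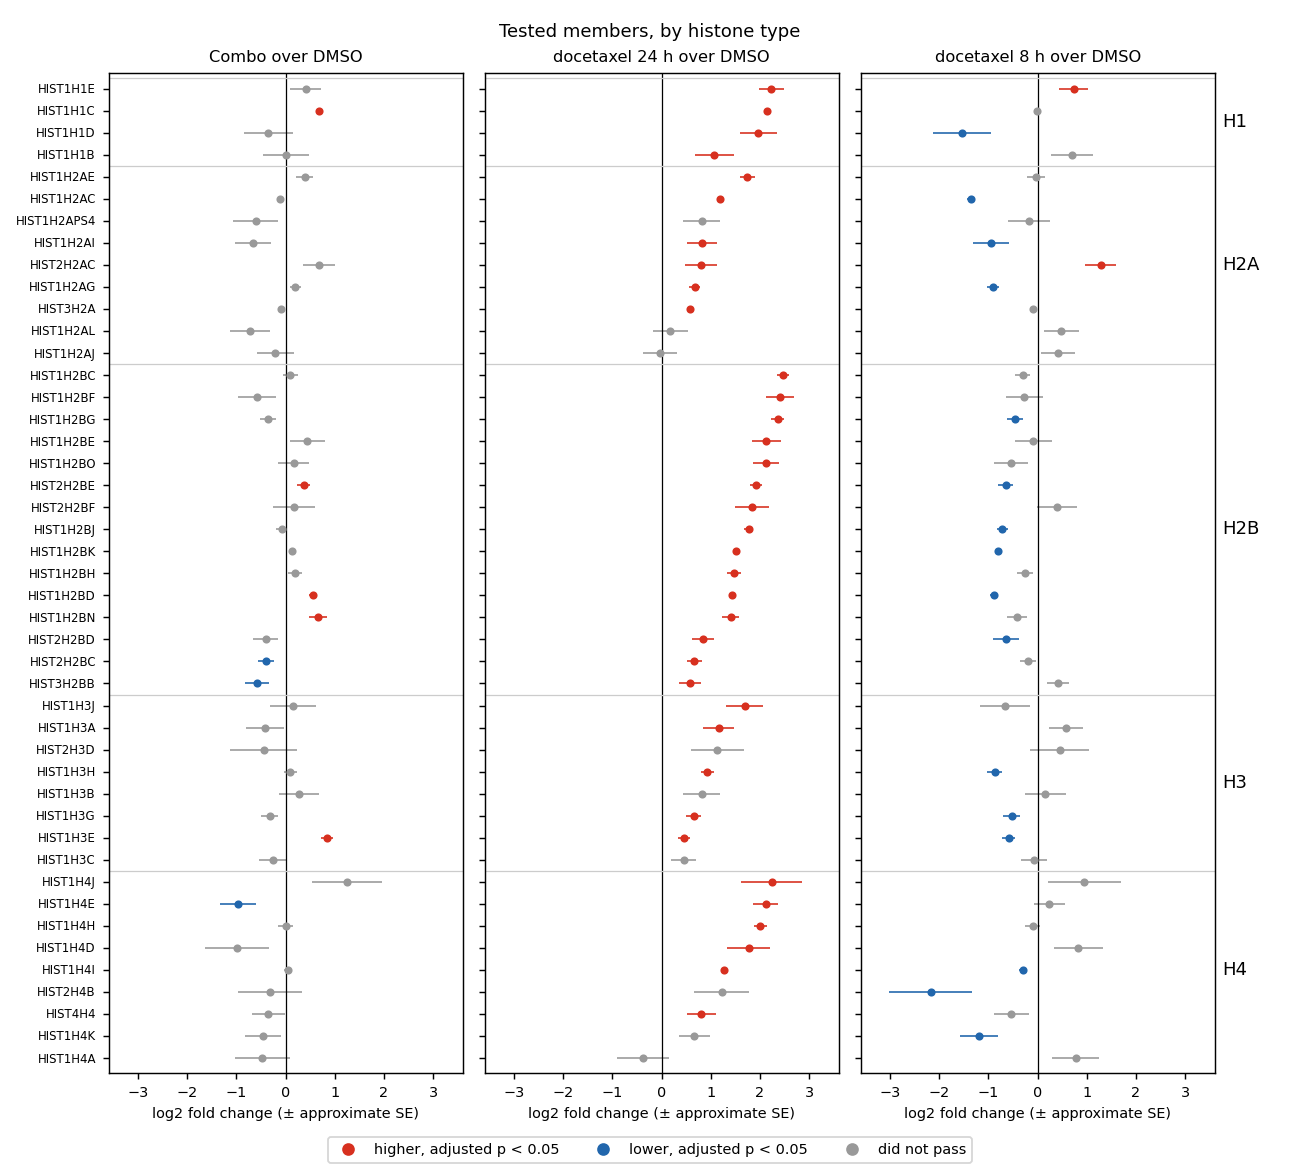
Log2 fold change over DMSO (x axis, with approximate standard errors) of the 45 tested members (rows, grouped by histone type) for Combo, docetaxel 24 h and docetaxel 8 h; red and blue points passed an adjusted p under 0.05, grey points did not. At docetaxel 24 h 36 points are red and none is blue, at docetaxel 8 h 2 are red and 16 blue, and in Combo 5 are red and 3 blue.

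Of the 4 tested linker histone H1 genes, HIST1H1B and HIST1H1D averaged under 1 CPM in every group. HIST1H1D passed the filter on low counts only through docetaxel 24 h, so a count over the type says little. The other 2, HIST1H1C and HIST1H1E, are given here. HIST1H1C (chr6:26055787-26056428, − strand), which encodes the linker histone H1.2, had 25.4, 23.3 and 24.03 CPM in Combo, 64.8, 62.3 and 71.9 CPM at docetaxel 24 h, 14.1, 15.8 and 15.2 CPM at docetaxel 8 h and 15.04, 15.2 and 14.98 CPM in DMSO libraries. The docetaxel 24 h libraries stood far above all others and the Combo libraries above both remaining groups, while docetaxel 8 h and DMSO overlapped. Its log2 fold change was 2.14 ± 0.07 (adjusted p = 4.59e-16, edgeR) at docetaxel 24 h over DMSO, 0.69 ± 0.07 (adjusted p = 9.78e-09, edgeR) for Combo over DMSO and -0.01 ± 0.07 at docetaxel 8 h over DMSO (adjusted p = 0.951, edgeR). Combo was lower than docetaxel 24 h, with a log2 fold change of -1.45 ± 0.06 (adjusted p = 5.56e-15, edgeR). HIST1H1E, which encodes H1.4, averaged 0.587 ± 0.168 CPM in Combo, 2.104 ± 0.449 CPM at docetaxel 24 h, 0.736 ± 0.0856 CPM at docetaxel 8 h and 0.439 ± 0.0238 CPM in DMSO (SD, n = 3 each). It was higher than DMSO at 24 h (2.23 ± 0.26, adjusted p = 4.78e-07, edgeR), and at 8 h with a log2 fold change of 0.73 ± 0.30 and an adjusted p = 0.0493 by edgeR. That 8 h call was lost when any DMSO or docetaxel 8 h library was left out, without Combo A or C or docetaxel 24 h A or B, and under library totals, DESeq2, no filter on low counts and the replicate block.

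At 24 h 6 of 9 tested H2A members were higher than in DMSO, beside 20.2% of all genes, and their median log2 of 0.80 was the lowest of the core histone types, a difference that was not tested. At 8 h 1 was higher and 3 were lower, beside 22.5% and 24.8% of all genes. HIST1H2APS4, which did not pass at 24 h, reached the level of the filter in all libraries only at docetaxel 24 h. It would also have been tested without that group. HIST1H2AC (chr6:26124145-26139116, + strand) had 46.6, 40.03 and 39.5 CPM in Combo, 102, 109.6 and 101 CPM at docetaxel 24 h, 17.7, 16.7 and 18.8 CPM at docetaxel 8 h and 46.1, 46.2 and 44.4 CPM in DMSO libraries. Its docetaxel 24 h libraries were the highest and its docetaxel 8 h libraries the lowest of the 12, and Combo overlapped DMSO. The log2 fold change was 1.19 ± 0.06 (adjusted p = 3.52e-12, edgeR) at 24 h and -1.36 ± 0.07 (adjusted p = 6.54e-13, edgeR) at 8 h over DMSO, and docetaxel 24 h exceeded docetaxel 8 h 5.89-fold. HIST1H2AC had the largest fall at 8 h among the members with every library given.

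HIST3H2A (chr1:228456979-228457873, − strand), an H2A gene of the small HIST3 cluster, had 42.1, 36.9 and 38.7 CPM in Combo, 57.9, 66.8 and 60.96 CPM at docetaxel 24 h, 38.4, 39.3 and 39.5 CPM at docetaxel 8 h and 43.1, 41.3 and 40.5 CPM in DMSO libraries. Only docetaxel 24 h stood apart in it, above all other libraries, by 0.57 ± 0.06 (adjusted p = 1.36e-07, edgeR) over DMSO. At 8 h its libraries lay below DMSO with a log2 fold change of -0.09 ± 0.06, which did not pass (adjusted p = 0.224, edgeR) but did under library totals. HIST1H2AG (chr6:27133042-27135291, + strand) had 7.18, 7.42 and 7.65 CPM in Combo, 11.6, 9.398 and 10.03 CPM at docetaxel 24 h, 3.08, 3.89 and 3.32 CPM at docetaxel 8 h and 7.16, 6.38 and 5.82 CPM in DMSO libraries. The groups were ordered docetaxel 24 h, Combo, DMSO and docetaxel 8 h without overlap, although the test of Combo over DMSO did not pass (0.20 ± 0.11, adjusted p = 0.134, edgeR). The changes over DMSO were 0.67 ± 0.11 (adjusted p = 2.59e-05, edgeR) at 24 h and -0.92 ± 0.12 (adjusted p = 2.02e-06, edgeR) at 8 h.

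HIST1H2AE (chr6:26216975-26217483, + strand) had 2.45, 1.85 and 2.29 CPM in Combo, 5.502, 5.11 and 6.24 CPM at docetaxel 24 h, 1.84, 1.39 and 1.71 CPM at docetaxel 8 h and 1.89, 1.300 and 1.803 CPM in DMSO libraries. Its docetaxel 24 h libraries were all above 5 CPM and the 9 others all below 2.5 CPM, with a log2 fold change of 1.75 ± 0.16 (adjusted p = 2.46e-08, edgeR) over DMSO. HIST2H2AC, of the chromosome 1 cluster, had another pattern and averaged 0.8702 ± 0.244 CPM in Combo, 0.971 ± 0.467 CPM at docetaxel 24 h, 1.33 ± 0.0588 CPM at docetaxel 8 h and 0.549 ± 0.133 CPM in DMSO (SD, n = 3 each). It was higher than DMSO at 8 h (1.28 ± 0.31, adjusted p = 0.00154, edgeR), with no overlap. At 24 h its log2 fold change over DMSO was 0.80 ± 0.32 (adjusted p = 0.0459, edgeR) with overlapping libraries, since docetaxel 24 h library B had 1.51 CPM and libraries A and C 0.691 and 0.711 CPM. The 24 h call was lost without docetaxel 24 h B, DMSO A or C, Combo C or docetaxel 8 h C, and under library totals, DESeq2 and a fit of the 6 libraries compared. HIST1H2AI was higher at 24 h (0.81 ± 0.30, adjusted p = 0.0347, edgeR) and lower at 8 h (-0.95 ± 0.37, adjusted p = 0.0411, edgeR), and 62.3% of its 50-base runs also occur in HIST1H2AJ, so reads may be split between them. Both calls were lost with DESeq2 and without DMSO A or B, the 24 h call also without docetaxel 24 h B, and the 8 h call also without DMSO C or docetaxel 8 h A or B.

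All 15 tested H2B members were higher than in DMSO at 24 h (median log2 1.77), beside 20.2% of all genes. Of the 15, 14 were higher at 24 h than at 8 h, beside 16.6% of all genes. All 15 were lower in Combo than at docetaxel 24 h (median -1.54), beside 31.7% of all genes. At 8 h 6 of 15 were lower than in DMSO and none was higher, beside 24.8% and 22.5% of all genes. None was higher at an unadjusted p under 0.05 either. HIST1H2BK (chr6:27146418-27146798, − strand), the member with the highest level per length in every group, had 46.4, 39.5 and 41.5 CPM in Combo, 106, 112 and 112 CPM at docetaxel 24 h, 24.2, 20.8 and 21.4 CPM at docetaxel 8 h and 36.3, 40.5 and 39.4 CPM in DMSO libraries. Per kilobase of its annotated exons that was 112 CPM in Combo, 290 at docetaxel 24 h, 58.1 at docetaxel 8 h and 102 in DMSO. The docetaxel 24 h libraries were above, and the docetaxel 8 h libraries below, all others, and Combo overlapped DMSO. Its log2 fold change over DMSO was 1.51 ± 0.06 (adjusted p = 2.56e-13, edgeR) at 24 h and -0.80 ± 0.07 (adjusted p = 3.92e-09, edgeR) at 8 h.

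HIST1H2BD (chr6:26158146-26171349, + strand) had 24.1, 22.7 and 24.1 CPM in Combo, 40.4, 43.4 and 46.7 CPM at docetaxel 24 h, 8.92, 8.71 and 8.56 CPM at docetaxel 8 h and 15.8, 15.5 and 17.2 CPM in DMSO libraries. The 4 groups did not overlap at any point, with docetaxel 24 h highest, then Combo, DMSO and docetaxel 8 h. It rose at 24 h by 1.43 ± 0.07 (adjusted p = 9.23e-13, edgeR), rose in Combo by 0.55 ± 0.07 (adjusted p = 3.46e-07, edgeR) and fell at 8 h, with a log2 fold change of -0.89 ± 0.08 (adjusted p = 3.77e-09, edgeR). HIST1H2BJ (chr6:27125897-27132750, − strand) had 4.89, 5.25 and 5.92 CPM in Combo, 19.1, 20.2 and 18.5 CPM at docetaxel 24 h, 3.53, 3.34 and 3.46 CPM at docetaxel 8 h and 5.23, 5.46 and 6.32 CPM in DMSO libraries. Docetaxel 24 h again stood alone at the top and docetaxel 8 h at the bottom, with log2 fold changes over DMSO of 1.77 ± 0.09 (adjusted p = 6.61e-12, edgeR) at 24 h and -0.72 ± 0.11 (adjusted p = 1.44e-05, edgeR) at 8 h. HIST2H2BE (chr1:149884459-149886652, − strand) had 4.49, 4.86 and 4.48 CPM in Combo, 14.5, 13.7 and 12.1 CPM at docetaxel 24 h, 1.93, 2.35 and 2.57 CPM at docetaxel 8 h and 3.78, 3.96 and 2.93 CPM in DMSO libraries. Its Combo libraries lay above DMSO, by 0.37 ± 0.13 (adjusted p = 0.0185, edgeR), a call that was lost without DMSO C or Combo B. Its changes with docetaxel were 1.91 ± 0.12 (adjusted p = 7.07e-11, edgeR) at 24 h and -0.65 ± 0.15 (adjusted p = 0.00085, edgeR) at 8 h.

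HIST1H2BC and HIST1H2BG had the largest rises at 24 h among the members with every library given. HIST1H2BC (chr6:26114873-26123926, − strand) had 2.01, 2.01 and 2.48 CPM in Combo, 10.8, 11.5 and 11.5 CPM at docetaxel 24 h, 1.78, 1.42 and 1.71 CPM at docetaxel 8 h and 2.004, 2.09 and 1.98 CPM in DMSO libraries. All docetaxel 24 h libraries were above 10 CPM and all 9 others below 2.5 CPM, a log2 fold change of 2.47 ± 0.12 (adjusted p = 2.02e-12, edgeR) over DMSO. HIST1H2BG (chr6:26215159-26216692, − strand) had 1.89, 1.68 and 2.26 CPM in Combo, 13.9, 13.2 and 11.1 CPM at docetaxel 24 h, 1.51, 2.04 and 1.89 CPM at docetaxel 8 h and 2.72, 2.32 and 2.36 CPM in DMSO libraries. It rose 5.12-fold at 24 h over DMSO and 7.02-fold between docetaxel 8 h and 24 h, and Combo was lower than docetaxel 24 h, with a log2 fold change of -2.71 ± 0.14 (adjusted p = 9.21e-14, edgeR). Its fall at 8 h (-0.46 ± 0.16, adjusted p = 0.0258, edgeR) was lost without DMSO A or docetaxel 8 h A.

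HIST1H2BH (chr6:26251651-26253710, + strand) had 2.88, 3.69 and 2.88 CPM in Combo, 8.298, 7.27 and 7.41 CPM at docetaxel 24 h, 2.61, 2.29 and 1.997 CPM at docetaxel 8 h and 2.93, 2.98 and 2.33 CPM in DMSO libraries. Docetaxel 24 h stood above the rest, by 1.47 ± 0.13 (adjusted p = 2.06e-08, edgeR) over DMSO, and both Combo and docetaxel 8 h overlapped DMSO. HIST2H2BC (chr1:149844498-149850937, − strand), annotated as a transcribed pseudogene that overlaps HIST2H2BD on the other strand, had 2.76, 1.98 and 2.52 CPM in Combo, 5.26, 5.45 and 4.54 CPM at docetaxel 24 h, 2.31, 3.24 and 2.78 CPM at docetaxel 8 h and 2.97, 3.01 and 3.61 CPM in DMSO libraries. It was higher at 24 h (0.67 ± 0.15, adjusted p = 0.000779, edgeR) and lower in Combo (-0.40 ± 0.16, adjusted p = 0.0366, edgeR), and the Combo call was lost without DMSO C, Combo B or Combo C and with DESeq2. The libraries may not record strand, so the counts of this gene and HIST2H2BD cannot be told apart.

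The less abundant H2B genes also rose at 24 h. HIST1H2BF averaged 0.256 ± 0.0346 CPM in Combo, 2.07 ± 0.393 CPM at docetaxel 24 h, 0.3098 ± 0.145 CPM at docetaxel 8 h and 0.381 ± 0.0563 CPM in DMSO (SD, n = 3 each). HIST1H2BO averaged 0.9703 ± 0.339 CPM in Combo, 3.76 ± 0.184 CPM at docetaxel 24 h, 0.574 ± 0.3704 CPM at docetaxel 8 h and 0.847 ± 0.258 CPM in DMSO (SD, n = 3 each). HIST1H2BE averaged 0.525 ± 0.134 CPM in Combo, 1.697 ± 0.113 CPM at docetaxel 24 h, 0.364 ± 0.0866 CPM at docetaxel 8 h and 0.381 ± 0.186 CPM in DMSO (SD, n = 3 each). Their log2 fold changes over DMSO at 24 h were 2.41 ± 0.28, 2.12 ± 0.26 and 2.13 ± 0.30, each with an adjusted p of at most 5.09e-06 (edgeR). HIST1H2BN averaged 2.77 ± 0.288 CPM in Combo, 4.64 ± 0.163 CPM at docetaxel 24 h, 1.31 ± 0.174 CPM at docetaxel 8 h and 1.74 ± 0.465 CPM in DMSO (SD, n = 3 each). It rose at 24 h (1.41 ± 0.17, adjusted p = 7.47e-07, edgeR) and in Combo (0.66 ± 0.18, adjusted p = 0.00277, edgeR). Its exons overlap HIST1H2AL on the same strand and HIST1H2AK, which had 0 counts in all libraries, on the other. Reads of these genes may have been counted in HIST1H2BN or left out as ambiguous, which was not tested. HIST2H2BF and HIST2H2BD rose at 24 h by 1.84 ± 0.35 (adjusted p = 0.000189, edgeR) and 0.84 ± 0.22 (adjusted p = 0.00335, edgeR). HIST3H2BB, the H2B gene beside HIST3H2A, had the smallest rise of the type at 24 h (0.58 ± 0.21, adjusted p = 0.0332, edgeR) and a fall in Combo (-0.58 ± 0.25, adjusted p = 0.0451, edgeR). The 24 h call was lost without DMSO A or C or docetaxel 24 h A or C, and the Combo call without DMSO A or B, Combo A or B or docetaxel 24 h A or C, and with DESeq2 and the replicate block.

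**Figure D2:**
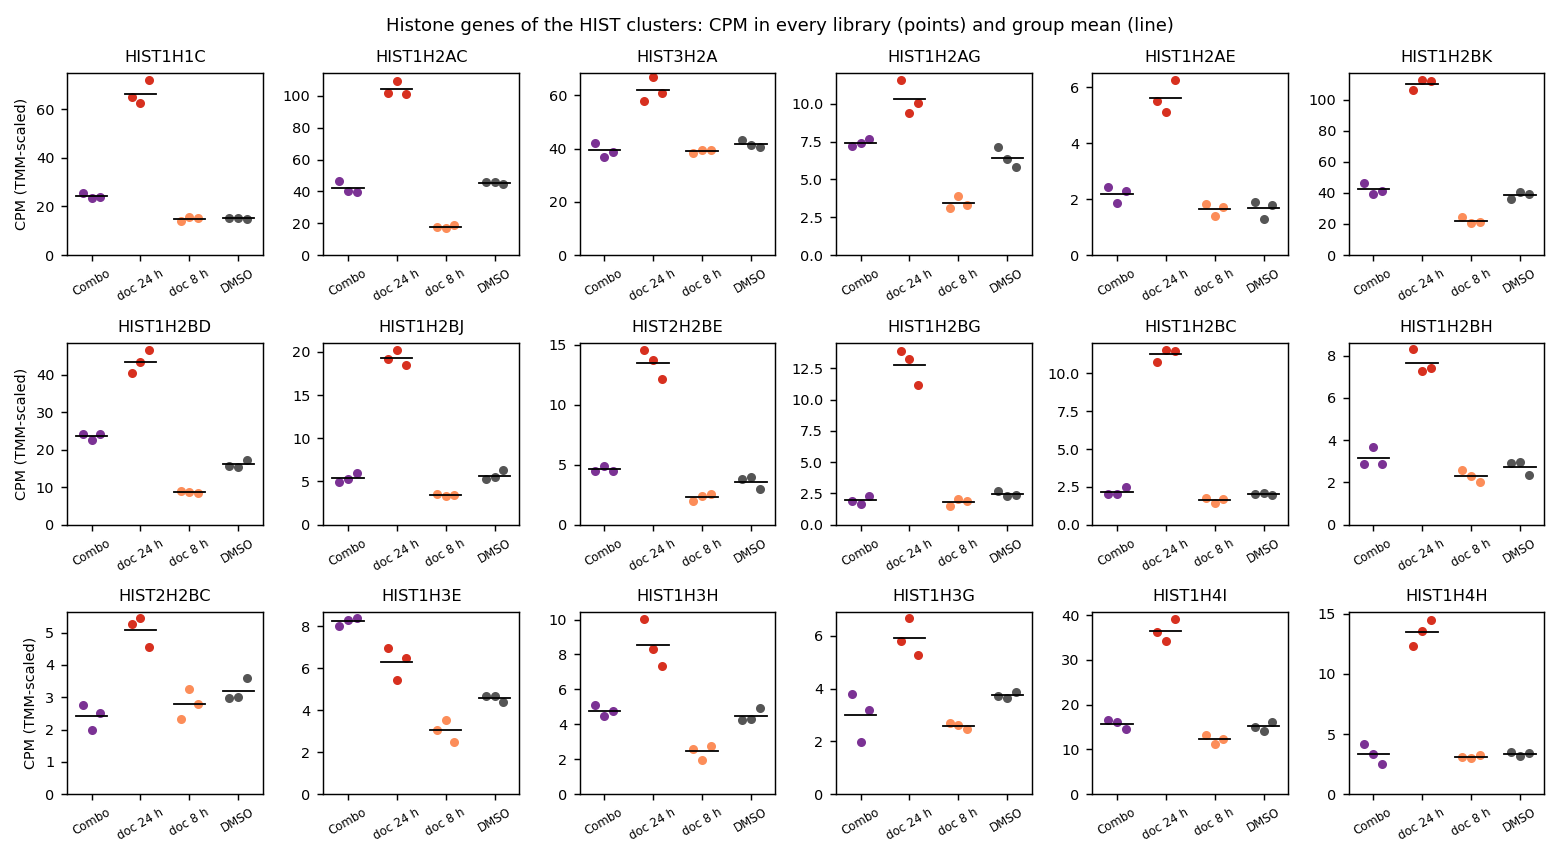
CPM after TMM scaling (y axis, linear from 0, a separate scale per gene) of 18 members in every library (points) with the group mean (line), for Combo, docetaxel 24 h, docetaxel 8 h and DMSO from left to right. In 17 of the 18 genes the docetaxel 24 h points lie above all others, and in HIST1H3E the Combo points do. The genes were chosen by their level over all groups or by a call, which favours such separation.

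Of 8 tested H3 members 5 were higher than in DMSO at 24 h (median log2 0.87), beside 20.2% of all genes; 1 of the 5, HIST1H3J, entered the test only through docetaxel 24 h. At 8 h 3 of the 8 were lower, beside 24.8% of all genes and 38.2% under library totals, which also gave 3. HIST1H3H (chr6:27810064-27811300, + strand), which encodes H3.1, had 5.11, 4.502 and 4.74 CPM in Combo, 10.01, 8.32 and 7.36 CPM at docetaxel 24 h, 2.61, 1.95 and 2.78 CPM at docetaxel 8 h and 4.26, 4.28 and 4.91 CPM in DMSO libraries. Docetaxel 24 h was highest, docetaxel 8 h lowest, and Combo overlapped DMSO. Log2 fold changes over DMSO were 0.93 ± 0.13 (adjusted p = 5.07e-06, edgeR) at 24 h and -0.88 ± 0.15 (adjusted p = 4.71e-05, edgeR) at 8 h. HIST1H3G (chr6:26269405-26271815, − strand), another H3.1 gene, had 3.78, 1.98 and 3.204 CPM in Combo, 5.802, 6.66 and 5.25 CPM at docetaxel 24 h, 2.696, 2.63 and 2.46 CPM at docetaxel 8 h and 3.71, 3.65 and 3.87 CPM in DMSO libraries. Its Combo libraries were spread from below all docetaxel 8 h libraries to within the range of the DMSO libraries, and its changes over DMSO were 0.65 ± 0.15 (adjusted p = 0.00152, edgeR) at 24 h and -0.53 ± 0.17 (adjusted p = 0.0147, edgeR) at 8 h.

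HIST1H3E (chr6:26224199-26227473, + strand), an H3.1 gene and the one with a TCTC loop above, had 8.02, 8.29 and 8.37 CPM in Combo, 6.97, 5.42 and 6.503 CPM at docetaxel 24 h, 3.05, 3.55 and 2.496 CPM at docetaxel 8 h and 4.68, 4.69 and 4.403 CPM in DMSO libraries. Its Combo libraries were highest, followed by docetaxel 24 h, DMSO and docetaxel 8 h, without overlap. It was the 1 member higher in Combo than at docetaxel 24 h (0.38 ± 0.12, adjusted p = 0.0062, edgeR). Over DMSO it rose by 0.84 ± 0.12 (adjusted p = 2.02e-06, edgeR) in Combo and 0.46 ± 0.12 (adjusted p = 0.00369, edgeR) at 24 h and fell at 8 h with a log2 fold change of -0.59 ± 0.13 (adjusted p = 0.000855, edgeR). Of the less abundant H3 genes, HIST1H3A rose at 24 h (1.16 ± 0.32, adjusted p = 0.00465, edgeR). HIST1H3C averaged 0.7005 ± 0.222 CPM in Combo, 1.16 ± 0.131 CPM at docetaxel 24 h, 0.802 ± 0.0902 CPM at docetaxel 8 h and 0.846 ± 0.1898 CPM in DMSO (SD, n = 3 each). Its log2 fold change at 24 h of 0.45 ± 0.25 did not pass (adjusted p = 0.162, edgeR).

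H4 genes nearly all encode the same protein from different loci. Of 9 tested members 6 were higher than in DMSO at 24 h (median log2 1.27), beside 20.2% of all genes, and 3 lower at 8 h, beside 24.8%. Of these, HIST1H4D and HIST1H4J entered the test only with the help of docetaxel 24 h libraries, and both are among the 6. HIST2H4B is among the 3. HIST1H4I (chr6:27138588-27139881, + strand) had 16.6, 16.1 and 14.6 CPM in Combo, 36.2, 34.2 and 39.3 CPM at docetaxel 24 h, 13.2, 11.2 and 12.4 CPM at docetaxel 8 h and 15.1, 14.1 and 16.2 CPM in DMSO libraries. Docetaxel 24 h was above and docetaxel 8 h below all others, with log2 fold changes over DMSO of 1.27 ± 0.08 (adjusted p = 3.42e-11, edgeR) at 24 h and -0.31 ± 0.08 (adjusted p = 0.00388, edgeR) at 8 h. HIST1H4H (chr6:26277609-26285638, − strand) had 4.18, 3.37 and 2.52 CPM in Combo, 12.4, 13.6 and 14.5 CPM at docetaxel 24 h, 3.11, 2.997 and 3.28 CPM at docetaxel 8 h and 3.501, 3.14 and 3.398 CPM in DMSO libraries. Only docetaxel 24 h stood apart, 4.03-fold above DMSO (2.01 ± 0.13, adjusted p = 8.35e-11, edgeR), and the log2 fold change of Combo over DMSO was 0.00 ± 0.15 (adjusted p = 0.986, edgeR).

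HIST1H4E averaged 0.257 ± 0.0388 CPM in Combo, 2.22 ± 0.648 CPM at docetaxel 24 h, 0.593 ± 0.129 CPM at docetaxel 8 h and 0.502 ± 0.0501 CPM in DMSO (SD, n = 3 each). It combined a rise at 24 h (2.11 ± 0.26, adjusted p = 1.13e-06, edgeR) with a fall in Combo (-0.97 ± 0.37, adjusted p = 0.0273, edgeR), and the fall was lost without DMSO A or C or Combo A or B. Its log2 fold change of Combo over docetaxel 24 h, -3.08 ± 0.30, was the lowest among the tested members. HIST4H4, the lone gene on chromosome 12, rose at 24 h (0.81 ± 0.30, adjusted p = 0.0324, edgeR), a call lost without DMSO B or C or docetaxel 24 h A or C. HIST2H4B is nearly identical to HIST2H4A (97.2% of its 50-base runs occur there), so its counts are uncertain. Its 24 h value did not pass (1.22 ± 0.55, adjusted p = 0.0798, edgeR), and its 8 h call (-2.18 ± 0.84, adjusted p = 0.0368, edgeR) was lost without DMSO B or C or docetaxel 8 h A or C and with DESeq2.

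Summed over all members of a type, H2B genes had 93.2 ± 3.27 CPM in Combo, 242 ± 4.47 at docetaxel 24 h, 51.8 ± 2.69 at docetaxel 8 h and 81.6 ± 1.81 in DMSO (SD, n = 3 each). H1 genes summed to 25.5 ± 0.956 CPM in Combo, 70.3 ± 4.39 at docetaxel 24 h, 16.4 ± 0.849 at docetaxel 8 h and 16.1 ± 0.0933 in DMSO. The DMSO libraries lay within the range of the docetaxel 8 h libraries. Most of the H1 sum was HIST1H1C, with 66.3 CPM at docetaxel 24 h and 15.1 CPM in DMSO. For H2A the sums were 93.6 ± 7.02 CPM in Combo, 187 ± 8.24 at docetaxel 24 h, 65.9 ± 1.37 at docetaxel 8 h and 98.3 ± 2.66 in DMSO. For H3 they were 18.4 ± 1.16 CPM in Combo, 25.6 ± 2.41 at docetaxel 24 h, 10.9 ± 0.098 at docetaxel 8 h and 15.5 ± 0.43 in DMSO. The H4 sums were 21.8 ± 0.726 CPM in Combo, 57.9 ± 2.62 at docetaxel 24 h, 18.5 ± 0.735 at docetaxel 8 h and 21.8 ± 1.05 in DMSO. The ratio of docetaxel 24 h to DMSO was largest for H1 (4.37) and smallest for H3 (1.66). These sums are a description without a test. The 5 genes with the highest means (HIST1H2BK, HIST1H2AC, HIST3H2A, HIST1H1C and HIST1H2BD) held 386 of the 583 CPM of all members at docetaxel 24 h and 157 of the 233 CPM in DMSO. Without them the 85 other members summed to 197 ± 4.78 CPM at docetaxel 24 h and 76.1 ± 1.26 CPM in DMSO, 2.59 times as much, against 2.46 times for the 5.

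**Figure D3:**
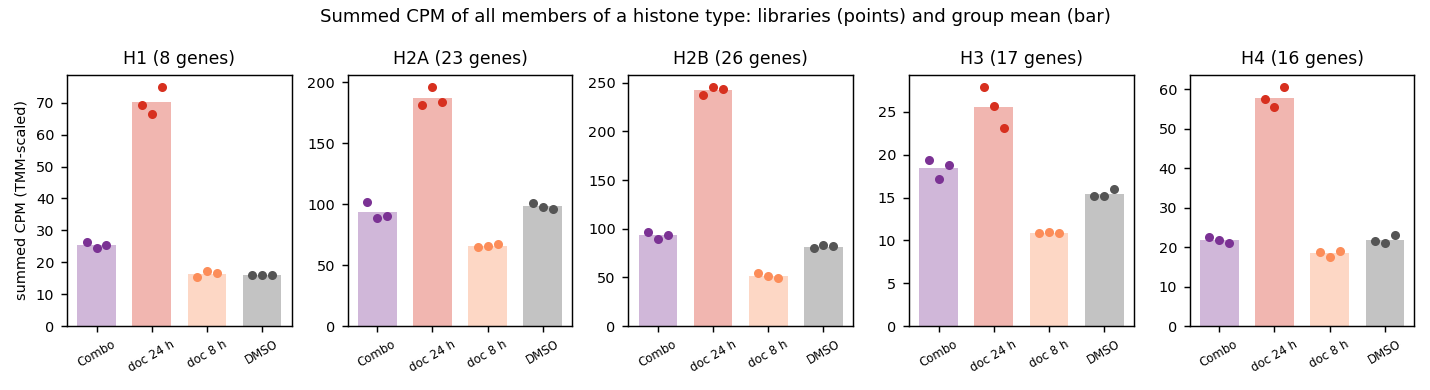
Summed CPM (y axis, linear from 0) of all members of each histone type in every library (points) with the group mean (bar), for Combo, docetaxel 24 h, docetaxel 8 h and DMSO from left to right. The docetaxel 24 h bar is the tallest in each type, and the docetaxel 8 h bar is the shortest in H2A, H2B, H3 and H4.

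By cluster, 28 of 35 tested HIST1 members rose at 24 h over DMSO (median log2 1.43), 5 of 7 HIST2 members (1.13), 2 of 2 HIST3 members (0.57) and HIST4H4, beside 20.2% of all genes. At 8 h 13 HIST1 and 3 HIST2 members fell and 1 of each rose, beside 24.8% of all genes lower and 22.5% higher. Other genes inside the chromosome 6 span of HIST1 (chr6:25726132-27893843), 26 of which were tested, had 4 higher and 5 lower at 24 h (median 0.06), close to the shares of all genes. At 8 h 1 of these 26 was higher and 10 were lower. Between the times 12 were higher and 3 lower at 24 h. So 38.5% were lower at 8 h, beside 24.8% of all genes. Between the times 46.2% were higher and 11.5% lower, beside 16.6% and 18.3% of all genes. The difference from all genes was not tested. HIST1H3D and HIST1H2AD had no counts in any library. Both lie inside AL031777.3, a gene named here after its values were seen, which averaged 0.355 CPM in Combo, 2.28 CPM at docetaxel 24 h, 0.343 CPM at docetaxel 8 h and 0.465 CPM in DMSO. It rose at 24 h over DMSO by 2.32 on the log2 scale (adjusted p = 1.31e-06, edgeR). Reads of those histone genes may have been counted there or left out as ambiguous, which was not tested.

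H2A and H2B genes often stand head to head with a shared promoter region, and 11 such coding pairs with starts within 500 bases were found. In 5 pairs both genes were tested, and in each the H2B gene had the larger log2 fold change at 24 h over DMSO. HIST1H2BC and HIST1H2AC, whose starts lie 219 bases apart, had 2.47 and 1.19 at 24 h, but -0.31 and -1.36 at 8 h. HIST1H2BJ and HIST1H2AG (292 bases) had 1.77 and 0.67 at 24 h, with -0.72 and -0.92 at 8 h. HIST1H2BG and HIST1H2AE (283 bases) had 2.36 and 1.75 at 24 h, and HIST3H2BB and HIST3H2A (234 bases) 0.58 and 0.57. In HIST2H2BE and HIST2H2AC (323 bases) the partners changed in opposite directions at 8 h, with -0.65 and 1.28, and both rose at 24 h, with 1.91 and 0.80. Differences within a pair were not tested.

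The annotated transcript models fall into classes by their length after the stop codon. Among coding members whose longest model runs more than 100 bases past the stop codon (30 members, 24 tested), 12 fell and 0 rose at 8 h over DMSO (median log2 -0.43). Of the same class 23 rose at 24 h (median 1.42). No risen member of this class appeared at an unadjusted p under 0.05 at 8 h. Among those whose models end within 100 bases of the stop codon (41 members, 18 tested), 3 fell and 2 rose at 8 h (median 0.43), and 11 rose at 24 h (median 1.15). The 11 include HIST1H1D, HIST1H3J, HIST1H4D and HIST1H4J, which entered the test only with the help of docetaxel 24 h libraries. HIST2H3D of this class did so too and did not pass at 24 h. In the longer class no tested member did so. The filter therefore favoured higher 24 h values in the shorter class. Of all genes 24.8% were lower and 22.5% higher at 8 h, so the counts of the shorter class at 8 h lie below the shares of all genes, and 20.2% were higher at 24 h. The difference between the classes was not tested. The classes also differ in level: the first summed to 167 CPM in DMSO and the second to 61.6 CPM, of which HIST1H2BK and HIST1H1C supplied 38.7 and 15.1 CPM. Whether the model or the level goes with the response was not tested, and the counts do not show which transcript form gave the reads.

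**Figure D4:**
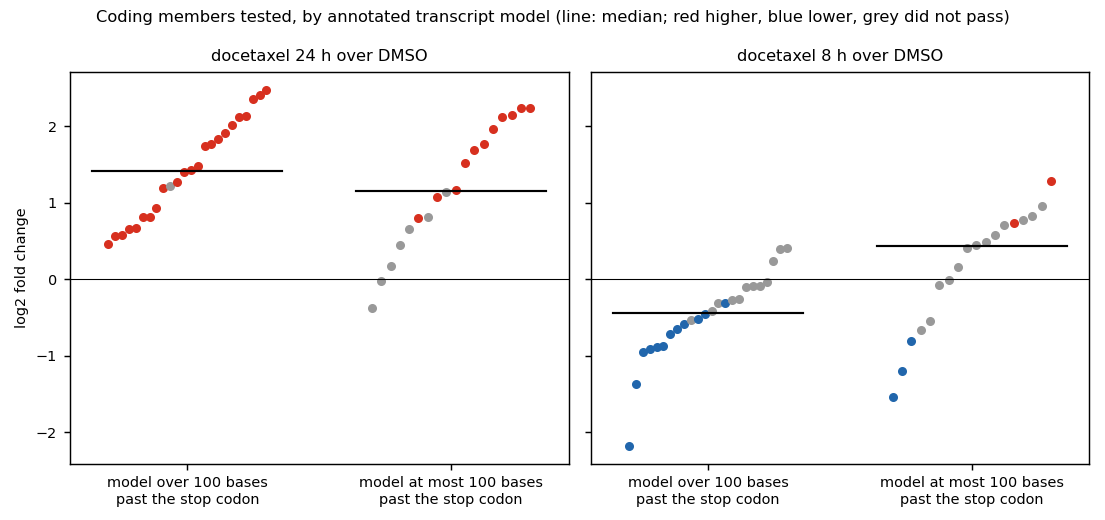
Log2 fold change over DMSO (y axis) of the tested coding members at docetaxel 24 h (left panel) and docetaxel 8 h (right panel), split by whether the annotated transcript runs more than 100 bases past the stop codon; points are genes, sorted by value within a class, and lines are medians. At 8 h the medians are -0.43 and 0.43, and at 24 h they are 1.42 and 1.15. The shorter class holds more genes that entered the test only through docetaxel 24 h.

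The 45 members that were not tested summed to 1.79 ± 0.0879 CPM in Combo, 3.58 ± 0.32 CPM at docetaxel 24 h, 2.53 ± 0.00847 CPM at docetaxel 8 h and 1.60 ± 0.0405 CPM in DMSO (SD, n = 3 each). Each docetaxel 24 h library lay above each docetaxel 8 h library, and these above all Combo and DMSO libraries. The sum rests on 168 counts in Combo, 400 at docetaxel 24 h, 238 at docetaxel 8 h and 174 in DMSO. Unlike the abundant members, these genes together were higher at 8 h than in DMSO, as a description without a test. None of them reached a group mean above 0.305 CPM. Among them are near-identical copies such as HIST2H2AA3 and HIST2H2AA4 or HIST2H3A and HIST2H3C, in which all or nearly all 50-base runs are shared, so that reads may have been discarded or split. Of the tested members, 6 share more than 50% of their 50-base runs with another member (HIST1H2AI, HIST1H2AJ, HIST1H4J, HIST1H4K, HIST2H3D and HIST2H4B), and their values are uncertain.

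The replacement histones, which can also be made outside S phase and mainly from polyadenylated mRNAs, were measured beside the HIST genes. The counts of this and the next lists are to be read against all genes, of which 20.2% were higher and 22.7% lower at docetaxel 24 h, 22.5% higher and 24.8% lower at docetaxel 8 h, and 31.4% higher and 31.4% lower in Combo, each over DMSO. Of 11 tested genes 7 rose and 1 fell at 24 h over DMSO (median log2 0.26), and 7 rose at 8 h (median 0.32); under library totals the 8 h counts were 6 and 2. H1F0, the replacement linker histone H1.0, averaged 486 ± 14.1 CPM at docetaxel 24 h and 355 ± 9.81 CPM in DMSO, a rise of 0.46 ± 0.05 (adjusted p = 1.25e-07, edgeR). H3F3B, which encodes H3.3, averaged 1174 ± 64.4 CPM at docetaxel 24 h and 884 ± 22.8 CPM in DMSO, a rise of 0.41 ± 0.05 (adjusted p = 1.74e-06, edgeR). H2AFX, the variant phosphorylated at DNA breaks, averaged 435 ± 22.3 CPM at docetaxel 8 h and 259 ± 9.66 CPM in DMSO, a rise of 0.75 ± 0.05 (adjusted p = 1.04e-10, edgeR). It was lower at docetaxel 24 h than at docetaxel 8 h, with a log2 fold change of -0.85 ± 0.05 (adjusted p = 1.74e-11, edgeR). In Combo 3 rose and 4 fell against DMSO, with CENPA, the centromeric H3, higher by 0.43 ± 0.05 (adjusted p = 2.06e-07, edgeR).

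DNA replication genes serve the same phase of the cell cycle. At 8 h 25 of 32 rose and 2 fell (median log2 0.33), 18 and 4 under library totals, and at 24 h 1 rose and 22 fell (median -0.27). RRM2, a subunit of ribonucleotide reductase, averaged 323 ± 12.6 CPM at docetaxel 8 h and 176 ± 3.14 CPM in DMSO (0.87 ± 0.05, adjusted p = 6.74e-12, edgeR). MCM2, of the replicative helicase, averaged 58.9 ± 6.42 CPM at docetaxel 24 h and 113 ± 6.40 CPM in DMSO (-0.95 ± 0.06, adjusted p = 3.39e-10, edgeR). In Combo 31 of 32 fell against DMSO (median -0.74), beside a median of -0.08 for the HIST genes; the difference was not tested.

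Of 9 regulators of histone gene transcription 2 rose and 4 fell at 24 h, 2 fell at 8 h (5 under library totals) and 6 fell in Combo. The 2 that rose at 24 h and the 2 that fell at 8 h are near the shares of all genes, 20.2% and 24.8%. The cyclin CCNE1 averaged 26.8 ± 0.982 CPM at docetaxel 24 h and 35.7 ± 0.595 CPM in DMSO (-0.41 ± 0.06, adjusted p = 1.70e-05, edgeR). HINFP, which activates H4 genes, averaged 31.8 ± 1.5 CPM at docetaxel 24 h and 26.6 ± 1.14 CPM in DMSO (0.25 ± 0.06, adjusted p = 0.00229, edgeR). NPAT, the coactivator at histone loci, averaged 19.7 ± 0.815 CPM in Combo and 31.2 ± 0.742 CPM in DMSO (-0.66 ± 0.07, adjusted p = 1.38e-08, edgeR).

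Of 16 genes of histone pre-mRNA 3′ processing 10 rose and 2 fell at 24 h, 11 rose at 8 h, and 14 fell in Combo, each over DMSO. Under library totals the 8 h counts were 9 and 4. LSM11, a U7-specific subunit, averaged 10.2 ± 0.491 CPM at docetaxel 24 h and 13.8 ± 0.759 CPM in DMSO (-0.43 ± 0.08, adjusted p = 0.00016, edgeR). SLBP averaged 66.5 ± 2.49 CPM in Combo and 108 ± 3.83 CPM in DMSO (-0.70 ± 0.05, adjusted p = 2.20e-11, edgeR). Of 8 genes of histone mRNA decay 2 rose and 2 fell at 24 h, 2 rose and 3 fell at 8 h (1 and 4 under library totals) and 5 fell in Combo, among them the exonuclease ERI1 (-0.74 ± 0.05, adjusted p = 3.83e-11, edgeR). Of 15 genes of general cleavage and polyadenylation 4 rose and 2 fell at 24 h, the same numbers at 8 h (2 and 5 under library totals), and 10 fell in Combo. The docetaxel counts of that list are near the shares of all genes, 20.2% higher and 22.7% lower at 24 h and 22.5% and 24.8% at 8 h.

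Of 23 histone chaperones 6 rose and 10 fell at 24 h, 15 rose and 4 fell at 8 h (11 and 5 under library totals), and 2 rose and 20 fell in Combo, each over DMSO. SUPT16H, a subunit of the chaperone FACT, averaged 119 ± 4.24 CPM at docetaxel 24 h and 157 ± 0.467 CPM in DMSO (-0.40 ± 0.05, adjusted p = 6.60e-07, edgeR). ASF1A, which carries H3 and H4, averaged 41.6 ± 3.54 CPM at docetaxel 24 h and 31.4 ± 0.346 CPM in DMSO (0.41 ± 0.06, adjusted p = 1.71e-05, edgeR). HJURP, the chaperone of CENPA, was higher at 8 h than in DMSO by 0.75 ± 0.05 (adjusted p = 9.63e-11, edgeR).

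Other RNAs without a poly(A) tail are given here because most mRNAs of the HIST genes lack one as well. Of 15 such RNAs 3 were tested, and 6 had 0 counts in all libraries. SNORD3A averaged 0.698 ± 0.235 CPM at docetaxel 24 h, 0.369 ± 0.047 CPM at docetaxel 8 h and 0.136 ± 0.0412 CPM in DMSO. It rose at both 24 h (2.35 ± 0.43, adjusted p = 0.000113, edgeR) and 8 h (1.41 ± 0.48, adjusted p = 0.0193, edgeR). SNORA73B rose at 8 h (1.01 ± 0.20, adjusted p = 0.000207, edgeR), and its 24 h value was 0.34 ± 0.21 (adjusted p = 0.191, edgeR). RN7SL2 averaged 4.61 ± 2.52 CPM at docetaxel 24 h, 4.28 ± 0.522 CPM at docetaxel 8 h and 3.47 ± 1.23 CPM in DMSO. It passed in neither comparison. The summed level of the 15 RNAs was 5.57 to 7.45 CPM in Combo, 4.56 to 9.77 at docetaxel 24 h, 6.12 to 7.38 at docetaxel 8 h and 3.36 to 6.09 in DMSO libraries. Its part in the change of the HIST genes was not tested.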

How the data were processed

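Poly(A)-selected RNA of 12 MDA-MB-468 libraries was sequenced, 3 in each of 4 groups, and the authors deposited read counts per gene and values divided by size factors, a normalized signal that was used here only as an alternative scaling. Per the submitters' processing notes, fastp, HISAT2 2.0.5, DESeq2 and the build hg38 were used; for the counting program, its annotation and its use of strand, the sources used here name nothing. Groups were taken from the labels.

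Counts were fitted with edgeR 4.0.16 in R 4.3.3 (TMM scaling, filterByExpr with a minimum count of 10, glmQLFit and glmQLFTest), in 1 model of all 12 libraries without covariates and with 8 residual degrees of freedom, and 5 comparisons were drawn from it. P-values were adjusted by Benjamini-Hochberg over 17780 genes. The scripts were tested on simulated data. Library totals were 29820617 to 45807059 and the biological coefficient of variation was 5.59%. Gene positions are those of GENCODE release 29, in which 58708 of 58735 rows were matched; 27 symbols had been turned into dates, with at most 0.204% of counts, and 1745 rows repeat a symbol.

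Members whose mean reached 1 CPM in any group are named, and each library is given for the 15 highest and for every called member with at least 5 CPM in a group. Genes of other lists are named by the smallest adjusted p, up to 4 a list and comparison. The members and lists were chosen with earlier results of these data known. Alternatives were the authors' size factors, library totals, DESeq2 1.42.0, no low-count filter, a fit of the 6 libraries compared, a replicate block and leaving out each library.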

Additional observations from a re-analysis of the deposited data

How the results depend on the processing

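The count of HIST members higher at docetaxel 24 h than in DMSO was 36, and lay between 33 and 41 under all alternatives; the 32 higher than at docetaxel 8 h lay between 32 and 35, and the 39 lower in Combo than at docetaxel 24 h between 35 and 44. The 16 lower at 8 h gave 20 under library totals, 12 with DESeq2 and 11 to 16 when 1 library was left out. Small counts moved. The 2 higher at 8 h became 1 under library totals, DESeq2 and the replicate block, and 1 to 2 when a library was left out. The 0 lower at docetaxel 24 h than at docetaxel 8 h was 0 to 1, with HIST1H4A called without docetaxel 24 h B. The 3 lower in Combo than in DMSO became 5 under library totals, 1 with DESeq2, and 0 (without Combo B) to 4 (without Combo C) when a library was left out, with 1 left without DMSO A; the causes were not tested. No result changed direction.

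Libraries with the same letter showed no clear shared deviation: same-letter deviations correlated between -0.134 and 0.143. Their mean was 0.00112, against -0.000564 for different letters. This does not show whether the letters were paired in the experiment. With the replicate block 37 members were higher at 24 h over DMSO, 15 lower at 8 h and 2 lower in Combo over DMSO. For the 33 named members, 165 results were compared per setting: 156 kept their side of the threshold with DESeq2 and 9 were lost, and 1897 of the results with a library left out kept it, 66 were lost and 17 were gained. Members under 1 CPM are limited by depth, and poly(A) selection limits what any count says of the tailless mRNA.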
